A study of Mus musculus with 12 samples.

Results

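The response of BMI1-KO macrophages (MΦs) to myeloma cells was examined as the comparison of BMI1-KO MM-MΦs, which were co-cultured with 5TGM1 cells, with BMI1-KO MΦs grown alone. Its members are 6 of the 12 RNA-seq libraries of the study, 3 of each kind, matched by the number in their column names as pairs 1, 2 and 3. 5TGM1 is a mouse myeloma cell line, that is, a line of malignant plasma cells. The BMI1-KO mice were C57BL/6 BMI1fl/fl Mx1-Cre animals, in which the interferon-inducible Mx1 promoter drives the Cre recombinase that removes floxed Bmi1 exons. The wt controls, used here for reference and in the estimate of the spread, were BMI1fl/fl mice without Cre. Both genotypes received 5 doses of poly I:C (15 mg/kg) at 6 to 8 weeks of age. Poly I:C is a double-stranded RNA mimic that itself induces interferon. Bone marrow was taken 4 weeks later and grown in 5 ng/mL M-CSF for 7 days, co-culture lasted 48 h, and CD11b+ F4/80+ cells were sorted before total RNA was extracted. The sources used here do not say whether the MΦs were kept for a further 48 h without myeloma cells, nor whether the 3 replicates came from separate mice. The p-values rest on the spread between the numbered pairs of both genotypes, which were fitted together, and that spread may in part be technical.

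BMI1 is a subunit of Polycomb repressive complex 1, which keeps genes silent through histone modification, and the Cdkn2a locus is its best known target. Macrophages near a tumor take up signals from its cells and can change their chemokines, surface receptors and antigen presentation. Type I interferon is one such signal. It binds the receptor made of Ifnar1 and Ifnar2, the kinases Jak1 and Tyk2 then activate transcription factors, Stat2 among them, which work with Irf9 and switch on a large set of antiviral genes through a short promoter element. The comparison asks which of these and other programs differed between co-cultured and single-cultured macrophages that lack BMI1.

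Bmi1 had 251 to 364 counts in the wt libraries and was listed at 0 in each BMI1-KO library. Totals computed back from the FPKM values were 512 to 734 reads larger than the sum of the counts for BMI1-KO samples, against −1 to 0 for wt samples, so the listed 0 does not check the labels. Cdkn2a, the known target, had 108 to 230 counts in the BMI1-KO samples and 0 to 7 in the wt samples, and the genotypes did not overlap. Library totals were 9662279 to 11142768 counts in the BMI1-KO libraries. The macrophage markers Adgre1, Csf1r, Cd68, Mertk and Lyz2 were not called, with log2 fold changes between −0.13 and 0.092. Itgam, which encodes CD11b, had 0.28 (edgeR adjusted p = 0.092), while the macrophage marker Fcgr1 was called risen, at 1.15 (edgeR adjusted p = 1.0e-06). Of the T and NK cell markers, Cd3e, Cd3g and Ncr1 had 0 counts in all 6 libraries. Lck had 0, 6 and 2 counts in the MΦ libraries and 1, 0 and 0 in the MM-MΦ libraries. Among the genes in which pair 3 stood apart was Ifi202b (chromosome 1). It had 193 counts in the MΦ library and 361 in the MM-MΦ library of pair 3, and 0 in the other 10 libraries of the study. Other genes in which pair 3 lay apart are given below.

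Of 14197 genes tested with the pair as a block, 263 (1.85%) rose and 45 (0.317%) fell in BMI1-KO MM-MΦs, 308 (2.17%) in all, at an adjusted p under 0.05 (edgeR's quasi-likelihood test, Benjamini-Hochberg adjustment). The median log2 fold change of all genes tested was −0.0071. The rises were larger than the falls. Of the risen genes 118 changed more than 2-fold and 39 more than 4-fold, and the median log2 fold change was 0.91. Of the fallen genes 3 changed more than 2-fold, and the median was −0.45. The direction was the same in all 3 pairs for 260 of the risen and 45 of the fallen genes. Over all genes tested, all 3 pairs were higher with co-culture for 14.7% and lower for 15.3%. The test was blocked on these same pairs, so their agreement is no separate support for the calls. The 3 MM-MΦ libraries all lay above the 3 MΦ libraries for 153 of the risen genes, against 3.71% of all genes tested, and below them for 10 of the fallen genes, against 3.37%. Without the block 27 genes rose and 0 fell at the threshold, all 27 among the 263, and the common dispersion was 0.102 in place of 0.0133. The call held in each of the 3 fits that left out 1 pair for 129 risen and 6 fallen genes. Without pair 3 the counts were 161 risen and 11 fallen genes, and the fallen genes numbered 28 without pair 1 and 17 without pair 2. In sorted bulk samples a change in the cells present and a change of RNA per cell cannot be told apart.

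**Figure D1:**
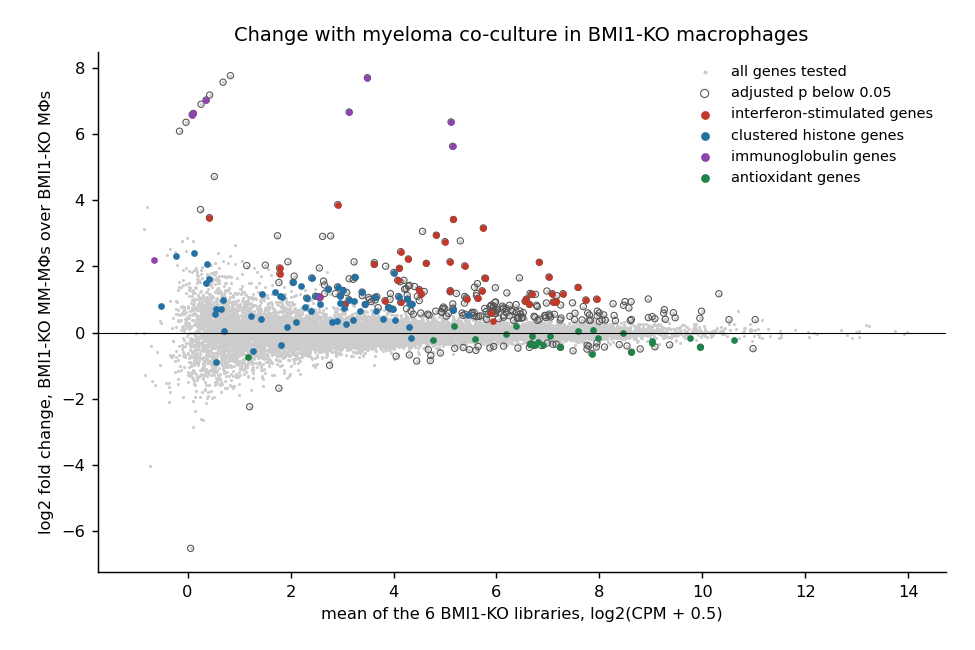
Log2 fold change of each of the 14197 genes tested (BMI1-KO MM-MΦs over BMI1-KO MΦs, vertical axis) against its mean level in the 6 BMI1-KO libraries, log2(CPM + 0.5) (horizontal axis), with the 308 called genes circled. Interferon-stimulated genes lie above 0 over the whole range of levels, the called immunoglobulin genes reach log2 fold changes above 5 at low levels, and 21 of 25 antioxidant genes lie below 0.

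Interferon-stimulated genes made the largest group of rises. Of the 43 tested members of that list 42 rose and 0 fell, against 1.85% of all genes tested, with a median log2 fold change of 1.26. The list rose in each pair, with median changes of 1.05, 1.3 and 1.45 on the log2 scale in pairs 1, 2 and 3. Of its members 43 of 43 were above 0 in every pair, against 14.7% of all genes tested. The list was chosen with earlier results of these data known. Its count was 35 to 36 when 1 pair was left out and 22 without the block.

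The Ifit genes, whose products bind viral RNA and block its translation, lie side by side on chromosome 19. All 5 that were tested rose, against 1.85% of all genes tested (family chosen after the values were seen). Ifit2 (mm10, chromosome 19 from 34550694 to 34576419) had 13.7, 11.3 and 7.08 CPM in the MΦ libraries and 95.3, 126 and 65.6 CPM in the MM-MΦ libraries. All 3 co-cultured libraries lay above all of the others (log2 fold change 3.16, SE 0.14, edgeR adjusted p = 4.3e-11). Ifit3 had 7.29, 7.91 and 3.08 CPM in the MΦ libraries and 44.5, 91.5 and 57.8 CPM in the MM-MΦ libraries, and its groups did not overlap either (log2 fold change 3.41, SE 0.21, edgeR adjusted p = 2.2e-09). Ifit1 had 7.92, 10.4 and 6.26 CPM in the MΦ libraries and 41.7, 67.3 and 55.5 CPM in the MM-MΦ libraries, which is 6.70-fold by the fit (log2 fold change 2.74, SE 0.17, edgeR adjusted p = 2.2e-09). In FPKM, which accounts for gene length, Ifit2 averaged 2.73 without and 24.1 with co-culture. Ifit3b, a near copy of Ifit3 whose reads may be shared with it, had the largest log2 fold change of the named rises outside the immunoglobulin loci that averaged 5 CPM or more in the higher group (log2 fold change 3.86, SE 0.45, edgeR adjusted p = 1.0e-05).

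Mx1, a dynamin-like GTPase against RNA viruses, had 7.40, 7.34 and 4.26 CPM in the MΦ libraries and 31.7, 69.97 and 47.1 CPM in the MM-MΦ libraries (log2 fold change 2.94, SE 0.21, edgeR adjusted p = 1.7e-08). Its promoter is also the one in the Cre transgene of these mice, and any part of the transgene in this rise was not tested. In the wt pairs, which carry no transgene, Mx1 had a log2 fold change of 2.27. The 2′-5′ oligoadenylate synthetase family degrades viral RNA through RNase L or, for the Oasl members, acts in RNA sensing. Oasl1 had 9.27, 17.5 and 11.2 CPM in the MΦ libraries and 42.5, 63.5 and 58.3 CPM in the MM-MΦ libraries (log2 fold change 2.14, SE 0.14, edgeR adjusted p = 8.8e-09), and Oasl2 had 56.5, 90.1 and 41.4 CPM without and 149, 253 and 185 CPM with co-culture (log2 fold change 1.68, SE 0.12, edgeR adjusted p = 3.8e-08). Both were higher in every co-cultured library than in any library grown alone. Cmpk2, a mitochondrial nucleotide kinase, had 5.52, 7.05 and 3.27 CPM without and 21.3, 43.2 and 22.4 CPM with co-culture (log2 fold change 2.44, SE 0.20, edgeR adjusted p = 1.7e-07). Ifi44 had 8.12, 6.96 and 5.08 CPM without and 34.2, 35.99 and 23.8 CPM with co-culture (log2 fold change 2.22, SE 0.21, edgeR adjusted p = 7.1e-07). Gm6545, a gene model whose function is not named here, had 0.729, 0.477 and 0.726 CPM without and 3.83, 6.82 and 4.56 CPM with co-culture (log2 fold change 2.92, SE 0.49, edgeR adjusted p = 9.7e-04).

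Genes of the interferon pathway itself were taken by role, after the values were seen. Among the ligands, Ifnb1, Ifng, Ifna1, Ifna2 and Ifna4 had 0 counts in all 6 libraries, so these transcripts were not detectable at this depth. The receptor chains did not pass the test, with log2 fold changes of 0.034 for Ifnar1 (edgeR adjusted p = 0.94) and 0.17 for Ifnar2 (edgeR adjusted p = 0.484). The kinases Jak1 and Tyk2 did not pass either (log2 fold changes 0.017 and 0.13). Downstream, Stat2 had 88.5, 92.9 and 67.5 CPM in the MΦ libraries and 166, 216 and 178 CPM in the MM-MΦ libraries (log2 fold change 1.18, SE 0.099, edgeR adjusted p = 1.7e-07), and its groups did not overlap. Irf9, its partner, was the 1 tested member of the interferon-stimulated list that was not called, with 49.5, 61.8 and 49.2 CPM without and 61.01, 67.3 and 76.7 CPM with co-culture (log2 fold change 0.36, SE 0.11, edgeR adjusted p = 0.114).

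Irf7, which amplifies the response by switching on interferon alpha genes, had 34.5, 74.1 and 25.4 CPM in the MΦ libraries and 133, 223 and 189.9 CPM in the MM-MΦ libraries (log2 fold change 2.12, SE 0.18, edgeR adjusted p = 1.9e-07). Irf3, a factor that is activated without a change in its level, had a log2 fold change of 0.073 (edgeR adjusted p = 0.914). Of the sensors of viral nucleic acid, Ddx58 (RIG-I) rose by 1.16 on the log2 scale (edgeR adjusted p = 2.9e-07), Ifih1 (MDA5) by 0.94 (edgeR adjusted p = 1.1e-05), Dhx58 by 1.26 (edgeR adjusted p = 1.8e-06) and Zbp1 by 2.09 (edgeR adjusted p = 4.6e-06). In all 4 the co-cultured libraries lay above those grown alone. Tlr3 and Tlr7, the endosomal receptors, had log2 fold changes of 0.58 and 0.23 and did not pass (edgeR adjusted p = 0.072 and 0.298).

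Among the effectors, Rsad2 (viperin) had 21.6, 22.02 and 6.44 CPM in the MΦ libraries and 60.6, 102 and 34.4 CPM in the MM-MΦ libraries (log2 fold change 2.01, SE 0.16, edgeR adjusted p = 1.1e-07). Eif2ak2, the kinase PKR that halts translation, had 55, 73.6 and 84.6 CPM without and 103, 142 and 137 CPM with co-culture (log2 fold change 0.85, SE 0.093, edgeR adjusted p = 5.3e-06). Isg15, a ubiquitin-like modifier, was low, with 1.04, 2.19 and 0.544 CPM without and 2.87, 6.51 and 4.56 CPM with co-culture (log2 fold change 1.95, SE 0.46, edgeR adjusted p = 0.025), and its call was lost without each of the 3 pairs. Usp18, which removes Isg15 from proteins and dampens the receptor, had 6.46, 8.87 and 4.99 CPM without and 13.9, 35.3 and 31.4 CPM with co-culture (log2 fold change 1.94, SE 0.23, edgeR adjusted p = 1.8e-05). Of the inhibitors of this signalling, Socs1 had 2 to 12 counts in each library and was not tested. Socs3 had 133, 137 and 82.3 CPM without and 407, 156 and 151 CPM with co-culture (log2 fold change 0.90, SE 0.18, edgeR adjusted p = 0.0065), with the largest rise in pair 1, and its call was lost without pair 1 or pair 3 (edgeR adjusted p = 0.194 and 0.078).

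**Figure D2:**
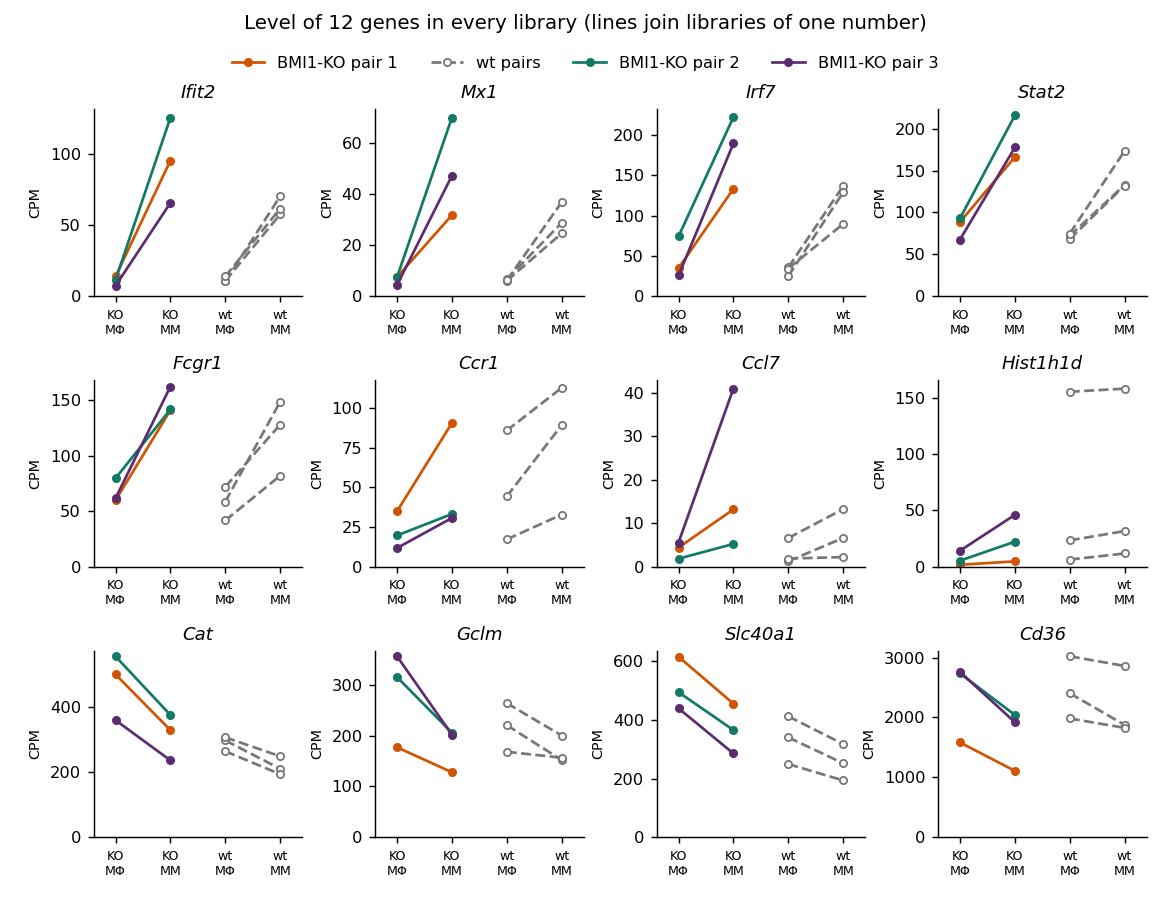
CPM (vertical axes, from 0) of 12 genes in all 12 libraries, with a line joining the MΦ and the MM-MΦ library of each BMI1-KO pair (filled, colored) and each wt pair (open, grey). Ifit2, Mx1, Irf7, Stat2, Fcgr1 and Ccr1 rise in all 3 BMI1-KO pairs, and Cat, Gclm, Slc40a1 and Cd36 fall in all 3.

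Promoters of the interferon-stimulated genes are shown because the list moved together. The 300-base windows hold 250 bases before and 50 after the gene start, from RefSeq on GRCm38.p6, 5′ to 3′ on the gene's strand. The letters GAAA, 2 bases of any kind and GAAA again, the core of the interferon-stimulated response element, were searched on both strands, and matches are in capitals. Shown are the 4 risen members of the list with the smallest p among those with a match, at chr19:34640639-34640938 (Ifit1, + strand), chr19:34583279-34583578 (Ifit3, + strand), chr12:26456403-26456702 (Rsad2, − strand) and chr10:128270248-128270547 (Stat2, + strand).
Ifit1: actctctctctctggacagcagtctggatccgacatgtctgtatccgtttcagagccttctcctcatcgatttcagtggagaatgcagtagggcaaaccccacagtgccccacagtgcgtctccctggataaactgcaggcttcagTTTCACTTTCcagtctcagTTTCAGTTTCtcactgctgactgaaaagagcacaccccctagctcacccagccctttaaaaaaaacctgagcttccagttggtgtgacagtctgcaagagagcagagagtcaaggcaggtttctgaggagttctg
Ifit3: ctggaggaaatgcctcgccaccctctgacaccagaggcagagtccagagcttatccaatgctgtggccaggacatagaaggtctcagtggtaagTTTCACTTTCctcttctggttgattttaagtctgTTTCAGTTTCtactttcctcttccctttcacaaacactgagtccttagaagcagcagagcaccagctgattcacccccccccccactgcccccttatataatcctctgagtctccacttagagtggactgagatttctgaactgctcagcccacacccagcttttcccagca
Rsad2: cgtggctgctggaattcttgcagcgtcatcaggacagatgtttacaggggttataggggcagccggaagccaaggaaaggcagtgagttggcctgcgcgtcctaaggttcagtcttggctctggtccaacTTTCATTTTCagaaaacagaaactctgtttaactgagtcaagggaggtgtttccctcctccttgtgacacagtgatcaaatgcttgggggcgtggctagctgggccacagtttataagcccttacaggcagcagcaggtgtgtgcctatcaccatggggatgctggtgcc
Stat2: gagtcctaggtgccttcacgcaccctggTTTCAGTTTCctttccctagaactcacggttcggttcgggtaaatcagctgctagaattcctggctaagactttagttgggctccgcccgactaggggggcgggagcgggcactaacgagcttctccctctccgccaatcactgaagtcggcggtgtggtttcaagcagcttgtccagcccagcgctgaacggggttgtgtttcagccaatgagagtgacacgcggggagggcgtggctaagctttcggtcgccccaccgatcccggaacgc
Ifit1 and Ifit3 each held 2 matches, and Rsad2 and Stat2 held 1. The first base of the match nearest to the start lay 85, 122, 120 and 222 bases before it in Ifit1, Ifit3, Rsad2 and Stat2. A promoter was found for 179 of the 263 risen genes, of which 52 (29.1%) held a match. Among the fallen genes 0 of 35 held one, among all tested genes 370 of 9502 (3.89%), and among all 32851 windows of this length 3.44%. In the list itself 19 of 32 members with a promoter held one (59.4%). A match is a description of sequence and says nothing of binding in these cells.

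Gene families near the interferon response were chosen after the values were seen. The Ifi200 family, a cluster of DNA-sensing genes on chromosome 1, rose in 10 of 12 tested members, against 1.85% of all genes tested. Ifi206 had 4.48, 9.82 and 1.36 CPM in the MΦ libraries and 35.3, 70.8 and 17.2 CPM in the MM-MΦ libraries (log2 fold change 3.06, SE 0.20, edgeR adjusted p = 8.8e-09), and Ifi213 had 12.5, 18.6 and 1.54 CPM without and 70.7, 105 and 24.96 CPM with co-culture (log2 fold change 2.77, SE 0.22, edgeR adjusted p = 1.1e-07). Ifi208 had 1.35, 2.76 and 0.272 CPM without and 12.3, 19.9 and 1.52 CPM with co-culture (log2 fold change 2.92, SE 0.39, edgeR adjusted p = 7.0e-05). For all 3 genes pair 3, the pair with Ifi202b counts, had the lowest values in both states, while the rise was present in each pair. Aim2, the sensor that builds an inflammasome, and Ifi207 were not called.

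The guanylate-binding proteins and immunity-related GTPases, which attack vacuoles of pathogens and are best known as targets of interferon gamma, rose in 9 of the 14 tested members of their list (64.3%, against 1.85% of all genes tested), with a median log2 fold change of 0.997, where the whole table had −0.0071. Gbp7 had 15.4, 7.63 and 4.45 CPM in the MΦ libraries and 32.6, 21.1 and 20.5 CPM in the MM-MΦ libraries (log2 fold change 1.53, SE 0.20, edgeR adjusted p = 5.7e-05). Iigp1 had 2.50, 1.72 and 0.181 CPM without and 9.88, 12.7 and 6.98 CPM with co-culture (log2 fold change 2.90, SE 0.40, edgeR adjusted p = 9.4e-05), Irgm2 had 32.9, 29.4 and 23.9 CPM without and 47.6, 66.96 and 45.6 CPM with co-culture (log2 fold change 0.89, SE 0.13, edgeR adjusted p = 3.3e-04), and Gbp9 had 35.2, 39.2 and 10.4 CPM without and 62.8, 76.7 and 28.1 CPM with co-culture (log2 fold change 1.05, SE 0.16, edgeR adjusted p = 2.6e-04). Co-cultured libraries all lay above those grown alone for Gbp7, Iigp1 and Irgm2, while for Gbp9 the groups overlapped and pair 3 was lowest in both states. Gbp2 and Igtp rose by 1.08 and 0.97 on the log2 scale (edgeR adjusted p = 0.0022 and 0.0022), and the Igtp call was lost without pair 3 (edgeR adjusted p = 0.0814).

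Genes of antigen presentation changed by smaller amounts. Of 19 MHC class I genes 5 rose (26.3%, against 1.85% of all genes tested) and 0 fell, with a median of 0.34 on the log2 scale. Nlrc5, the transactivator of class I genes, had 84.5, 104 and 53.5 CPM in the MΦ libraries and 146, 188 and 86.7 CPM in the MM-MΦ libraries (log2 fold change 0.78, SE 0.087, edgeR adjusted p = 6.7e-06). B2m, the light chain of every class I molecule, had 685, 759 and 277 CPM without and 922, 903 and 605 CPM with co-culture (log2 fold change 0.60, SE 0.12, edgeR adjusted p = 0.0048), and pair 3 both started lowest and rose most. H2-T23, the peptide transporter gene Tap1 and the proteasome activator gene Psme1 rose by 0.64, 0.55 and 0.43 on the log2 scale. Of 8 class II genes 1 (12.5%) was called, Cd74, the invariant chain, with 20.3, 6.96 and 5.45 CPM without and 38.6, 18.4 and 18.7 CPM with co-culture (log2 fold change 1.31, SE 0.15, edgeR adjusted p = 6.7e-06). Calls were lost without pair 1 for Psme1, without pair 2 for Tap1 and without pair 3 for B2m, Tap1 and Psme1 (edgeR adjusted p up to 0.234).

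Receptors for antibody and complement components were among the called macrophage genes. Fcgr1, the high-affinity receptor for IgG, had 59.8, 79.6 and 61.6 CPM in the MΦ libraries and 141, 142 and 162 CPM in the MM-MΦ libraries (log2 fold change 1.15, SE 0.11, edgeR adjusted p = 1.0e-06), and every co-cultured library lay above those grown alone. Fcgr4 had 46.04, 45.9 and 30.6 CPM without and 80.9, 67.1 and 54.1 CPM with co-culture (log2 fold change 0.73, SE 0.12, edgeR adjusted p = 6.2e-04), and 2 of 7 Fc gamma receptor genes rose in all (28.6%, against 1.85% of all genes tested). Of 15 complement genes 4 rose (26.7%) and 0 fell. C1qa, C1qb and C1qc, the subunits of C1q that start the classical pathway, rose by 0.42, 0.39 and 0.43 on the log2 scale. C1qa had 434, 512 and 441 CPM without and 647, 564 and 639 CPM with co-culture, so that pair 2 rose least. Cfp (properdin) rose by 0.33 on the log2 scale (edgeR adjusted p = 0.03). The complement calls were lost without pair 1 for C1qa, C1qb, C1qc and Cfp, without pair 2 for Cfp and without pair 3 for C1qa, C1qb, C1qc and Cfp (edgeR adjusted p up to 0.5).

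Chemokines that draw monocytes rose, unevenly between pairs. Of 17 chemokine genes 6 rose (35.3%, against 1.85% of all genes tested) and 0 fell, with a median log2 fold change of 0.53. Ccl7, a ligand of Ccr2, had 4.38, 1.81 and 5.54 CPM in the MΦ libraries and 13.2, 5.21 and 41.1 CPM in the MM-MΦ libraries (log2 fold change 2.11, SE 0.31, edgeR adjusted p = 2.6e-04). Ccl2, the main monocyte attractant, had 9.79, 7.43 and 13.9 CPM without and 27.9, 9.92 and 55.5 CPM with co-culture (log2 fold change 1.39, SE 0.24, edgeR adjusted p = 0.0012), and in both genes pair 3 ended highest and pair 2 lowest. Ccl3 and Ccl4, attractants of monocytes and T cells, rose by 0.58 and 0.62 on the log2 scale (edgeR adjusted p = 0.023 and 0.017), Ccl9 by 0.39 (edgeR adjusted p = 0.028) and Cxcl10, an interferon-induced attractant of T cells, by 0.85 (edgeR adjusted p = 0.047). The calls were lost without pair 1 for Ccl3, Ccl4, Ccl9 and Cxcl10, without pair 2 for Ccl9 and Cxcl10 and without pair 3 for Ccl7, Ccl2, Ccl3, Ccl4, Ccl9 and Cxcl10 (edgeR adjusted p up to 0.349).

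Of 12 tested chemokine receptor genes 3 rose (25%, against 1.85% of all genes tested) and 0 fell. Ccr1 had 34.9, 19.6 and 11.7 CPM in the MΦ libraries and 90.7, 33.2 and 30.7 CPM in the MM-MΦ libraries (log2 fold change 1.18, SE 0.14, edgeR adjusted p = 2.0e-05), and Ccr2 had 10.7, 23.5 and 36.4 CPM without and 21.3, 42.1 and 48.4 CPM with co-culture (log2 fold change 0.72, SE 0.16, edgeR adjusted p = 0.013). Without pair 1 and without pair 2 Ccr2 was no longer called (edgeR adjusted p = 0.118 and 0.147). Among cytokines, the inflammatory list held 1 risen gene of 18 (5.56%), Socs3, and Il6 had 0 to 8 counts in each library. Of 23 immediate early genes 3 rose (13%) and 0 fell. Egr1, a factor induced within minutes by many stimuli, including cell handling, differed widely between pairs, with 185, 54.4 and 10.3 CPM without and 500.2, 87.9 and 23.5 CPM with co-culture (log2 fold change 1.11, SE 0.15, edgeR adjusted p = 1.1e-04). Fos and Atf3 rose by 0.45 and 0.36 on the log2 scale (edgeR adjusted p = 0.0039 and 0.022), with calls lost without pair 1 for Atf3, without pair 2 for Fos and without pair 3 for Fos and Atf3 (edgeR adjusted p up to 0.28).

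**Figure D3:**
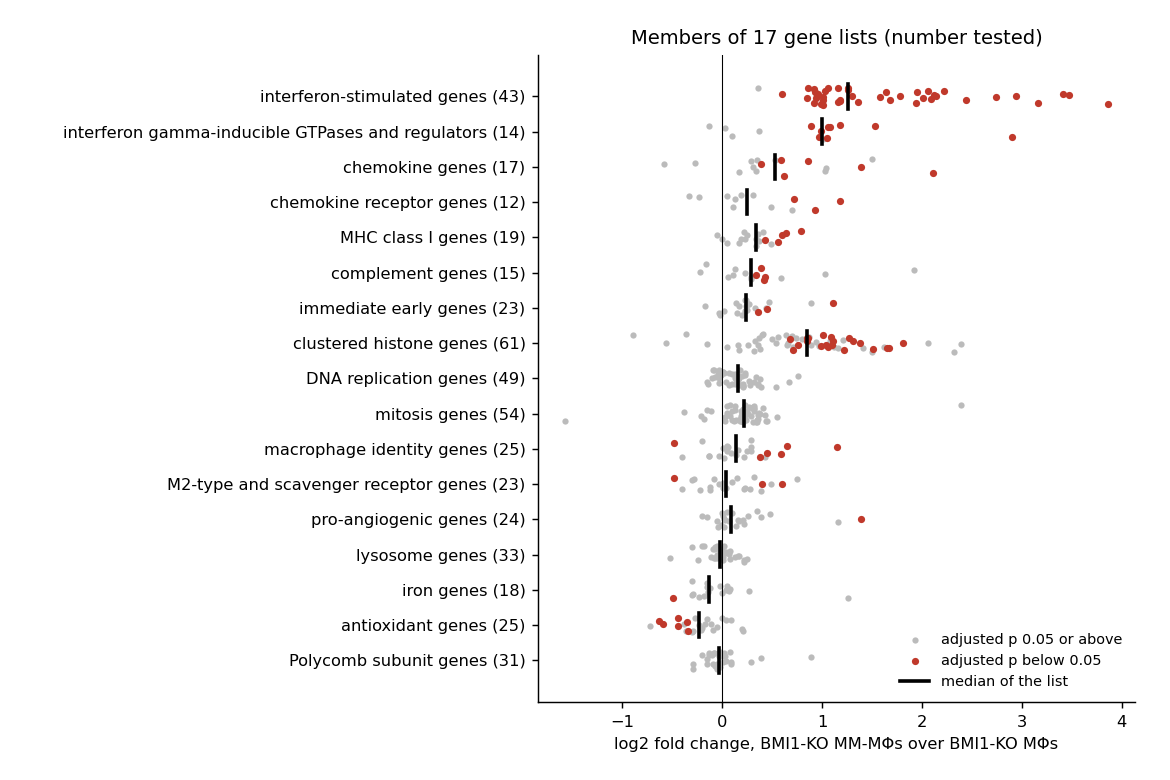
Log2 fold change (horizontal axis, BMI1-KO MM-MΦs over BMI1-KO MΦs) of each tested member of 17 gene lists (rows, number tested in brackets), with called genes in red and a black bar at each list's median. The interferon-stimulated list has 42 of 43 members called and a median of 1.26, the histone list lies to the right of the replication and mitosis lists, and the antioxidant list has a median of −0.23.

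Genes that mark tumor-associated macrophages were taken next. Mrc1, which encodes the mannose receptor CD206, had 787, 479 and 359 CPM in the MΦ libraries and 954, 642 and 506 CPM in the MM-MΦ libraries (log2 fold change 0.40, SE 0.082, edgeR adjusted p = 0.008), a rise in all 3 pairs in which the groups overlapped. Il4ra, the receptor chain for interleukin 4 and 13, had 219, 206 and 182 CPM without and 360.2, 257 and 306 CPM with co-culture (log2 fold change 0.60, SE 0.10, edgeR adjusted p = 0.0015). Of the 23 tested M2-type and scavenger receptor genes these 2 rose (8.7%, against 1.85% of all genes tested) and 1, Cd36, fell (4.35%, against 0.317%), and the median of the list was 0.041. Vegfa had 154, 91.4 and 73.3 CPM without and 115, 141 and 78.98 CPM with co-culture (log2 fold change 0.10, SE 0.13, edgeR adjusted p = 0.876). Mmp2, a gelatinase, was low, with 0.833, 1.33 and 0.544 CPM without and 1.49, 2.31 and 2.15 CPM with co-culture (log2 fold change 1.16, SE 0.57, edgeR adjusted p = 0.484). Of 24 pro-angiogenic genes 1 was called, Ccl2 (4.17%, against 2.17% of all genes tested). Among 25 macrophage identity genes 5 rose (20%, against 1.85% of all genes tested), namely Fcgr1, Siglec1, Csf2rb, Cd14 and Aif1, and 1 fell (Cd36), with a median of 0.13. Calls among them were lost without pair 1 for Aif1, without pair 2 for Cd14 and without pair 3 for Csf2rb, Cd14 and Aif1 (edgeR adjusted p up to 0.461). Siglec1, a sialic acid receptor that is also induced by interferon, had 372, 633 and 437 CPM without and 459, 889 and 852 CPM with co-culture (log2 fold change 0.59, SE 0.1, edgeR adjusted p = 0.0011).

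Other genes that the study names for these cells were read in the same pairs. Cdkn1a, which encodes the cell cycle inhibitor p21, had 199, 222 and 163 CPM in the MΦ libraries and 240.1, 261 and 248 CPM in the MM-MΦ libraries (log2 fold change 0.37, SE 0.086, edgeR adjusted p = 0.024), and the groups did not overlap. Cdkn2a, the BMI1 target, had 13.8, 13.7 and 16.2 CPM without and 11.5, 15.9 and 20.6 CPM with co-culture (log2 fold change 0.10, SE 0.21, edgeR adjusted p = 0.934), so that pair 1 fell and the other pairs rose. Mki67 had 86.98, 258 and 302 CPM without and 136, 275 and 347 CPM with co-culture (log2 fold change 0.30, SE 0.10, edgeR adjusted p = 0.204). Myc, Smo, Mcl1, Lgals3, Map3k8, Cd163, Itgam, Cdkn1b and Adgre1 did not pass the test, with log2 fold changes between −0.40 and 0.28. Shh and Gli1 had 0 counts in all 6 libraries. The calls of Mrc1 and Cdkn1a were lost without pair 1 for Cdkn1a, without pair 2 for Mrc1 and without pair 3 for Mrc1 and Cdkn1a (edgeR adjusted p up to 0.257).

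Clustered histone genes, which supply new nucleosomes in S phase, were the second large group of rises. Of 61 tested genes 21 rose and 0 fell, against 1.85% of all genes tested, with a median log2 fold change of 0.85. By family 3 of 5 H1 genes, 5 of 15 H2A genes, 2 of 16 H2B genes, 6 of 11 H3 genes and 5 of 13 H4 genes rose, and 19 of the 21 lie on chromosome 13. Hist1h1d, a linker histone gene (chromosome 13 from 23553262 to 23560686), had 1.56, 5.24 and 14.1 CPM in the MΦ libraries and 4.57, 22.1 and 45.9 CPM in the MM-MΦ libraries (log2 fold change 1.81, SE 0.17, edgeR adjusted p = 9.7e-07). Hist1h1b had 1.15, 13.9 and 22.4 CPM without and 2.76, 25.8 and 46.9 CPM with co-culture (log2 fold change 1.01, SE 0.16, edgeR adjusted p = 4.1e-04), and Hist1h2be had 1.88, 3.43 and 7.89 CPM without and 2.98, 10.7 and 18.7 CPM with co-culture (log2 fold change 1.27, SE 0.22, edgeR adjusted p = 0.0012). In each of them pair 1 was lowest and pair 3 highest both without and with co-culture, and the groups overlapped.

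Of 49 DNA replication genes and 54 mitosis genes 0 were called with edgeR, against 2.17% of all genes tested, with medians of 0.15 and 0.22. At an unadjusted p under 0.05 there were 5 replication genes (10.2%) and 10 mitosis genes (18.5%), against 10.6% of all genes. Log2 fold changes were above 0 for 37 of the replication and 48 of the mitosis genes, and values were higher with co-culture in all 3 pairs for 14 (28.6%) and 23 (42.6%) of them, against 14.7% of all genes tested. Top2a had 7.19, 104 and 145 CPM without and 16.9, 128 and 166 CPM with co-culture (log2 fold change 0.41, SE 0.13, edgeR adjusted p = 0.138). Histone genes moved unequally between pairs, with medians of 0.18, 0.66 and 1.05 on the log2 scale in pairs 1, 2 and 3. Leaving out pair 3 lowered the histone count from 21 to 3, leaving out pair 2 lowered it to 11, and without the block it was 0. Most replication-dependent histone mRNAs carry no poly(A) tail, and these libraries were made from total RNA. Another RNA that differs from most mRNA in processing, the mitochondrial 12S rRNA mt-Rnr1, had 77.8, 46.1 and 51.6 CPM without and 129, 74.5 and 220.5 CPM with co-culture (log2 fold change 1.18, SE 0.19, edgeR adjusted p = 5.8e-04), also with its highest value in pair 3, while the 16S rRNA mt-Rnr2 had a log2 fold change of 0.25 (edgeR adjusted p = 0.608). The part of such differences in RNA composition in the histone result was not tested. Histone genes also share near-identical sequence, so reads may be split between copies.

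The falls were small and led by antioxidant genes. Of 25 tested genes of that list 6 fell and 0 rose, against 0.317% of all genes tested, with a median log2 fold change of −0.23. Cat, the catalase that breaks down hydrogen peroxide (chromosome 2 from 103453849 to 103485160), had 501, 556 and 360.0 CPM in the MΦ libraries and 329, 376 and 236 CPM in the MM-MΦ libraries (log2 fold change −0.59, SE 0.076, edgeR adjusted p = 4.3e-05). Its fall was nearly the same in each pair, at −0.60, −0.56 and −0.61 on the log2 scale, although the groups overlapped. Gclm and Gclc, the subunits of the enzyme that limits glutathione synthesis, fell: Gclm had 177, 316 and 356 CPM without and 128, 206 and 202 CPM with co-culture (log2 fold change −0.64, SE 0.092, edgeR adjusted p = 1.8e-04) and Gclc had 81.9, 149 and 115 CPM without and 69.6, 104 and 94.8 CPM with co-culture (log2 fold change −0.35, SE 0.087, edgeR adjusted p = 0.04). Prdx1, a peroxiredoxin, had 1149 ± 195 CPM in MΦs and 843 ± 124 CPM in MM-MΦs (SD, n = 3 each), with a log2 fold change −0.44, SE 0.084, edgeR adjusted p = 0.0034, and Srxn1, which repairs oxidized peroxiredoxins, had 162, 188 and 173 CPM without and 134, 126 and 123 CPM with co-culture (log2 fold change −0.45, SE 0.094, edgeR adjusted p = 0.0093). Mgst1, a glutathione transferase, fell by 0.35 on the log2 scale. The calls were lost without pair 1 for Gclc and Mgst1, without pair 2 for Gclc, Prdx1, Srxn1 and Mgst1 and without pair 3 for Gclc, Srxn1 and Mgst1 (edgeR adjusted p up to 0.347), and the count of fallen members was 2 without pair 2 and 0 without the block.

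The antioxidant response is driven by Nfe2l2, which binds an element with the core TGACNNNGC. The windows of the 2 fallen list members with the smallest p among those that hold it are shown with the match in capitals, at chr3:122245307-122245606 (Gclm, + strand) and chr4:116685349-116685648 (Prdx1, + strand), both from RefSeq on GRCm38.p6.
Gclm: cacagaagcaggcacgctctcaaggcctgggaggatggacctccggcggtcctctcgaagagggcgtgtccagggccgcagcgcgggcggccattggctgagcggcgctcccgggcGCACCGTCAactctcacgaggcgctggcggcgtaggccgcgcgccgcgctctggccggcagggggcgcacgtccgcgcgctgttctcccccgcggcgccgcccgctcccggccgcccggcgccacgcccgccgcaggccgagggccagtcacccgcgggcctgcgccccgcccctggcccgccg
Prdx1: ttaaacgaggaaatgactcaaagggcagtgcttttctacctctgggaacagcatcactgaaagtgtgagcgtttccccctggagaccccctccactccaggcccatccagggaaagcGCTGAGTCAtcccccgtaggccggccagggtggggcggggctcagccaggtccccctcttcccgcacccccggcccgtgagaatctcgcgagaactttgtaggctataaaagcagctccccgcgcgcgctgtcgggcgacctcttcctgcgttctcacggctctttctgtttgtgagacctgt
In both the letters lie on the opposite strand, with the first base 134 and 133 bases before the start. These letters are common. They were in 10 of 35 fallen genes with a promoter (28.6%), in 30 of 179 risen genes (16.8%) and in 1617 of 9502 tested genes (17%), and in 12.4% of all promoters. Of the fallen list members with a promoter 4 of 5 held them.

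Further falls were of single genes of other lists. Of 18 iron genes 1 fell, Slc40a1 (5.56%), and of 26 lipid efflux, uptake and storage genes 1 fell, Cd36 (3.85%), against 0.317% of all genes tested. The list medians were −0.13 and 0.049, and a single called gene says little about a list. At an unadjusted p under 0.05 (edgeR) there were 5 iron genes (27.8%) and 10 lipid genes (38.5%), against 10.6% of all genes. Of these, 4 iron and 7 lipid genes were lower with co-culture. Slc40a1, the only known iron exporter, had 615, 494 and 439 CPM in the MΦ libraries and 455, 365 and 286 CPM in the MM-MΦ libraries (log2 fold change −0.50, SE 0.077, edgeR adjusted p = 3.9e-04). Cd36, a scavenger receptor for oxidized lipids, had 1582, 2734 and 2759 CPM without and 1107, 2041 and 1919 CPM with co-culture (log2 fold change −0.49, SE 0.078, edgeR adjusted p = 6.0e-04). Both fell in each pair, with changes of −0.43, −0.44 and −0.62 for Slc40a1 and −0.51, −0.42 and −0.52 for Cd36 on the log2 scale. Hal, a histidine-degrading enzyme, had 18.5, 61.01 and 21.8 CPM without and 10.2, 27.6 and 15.5 CPM with co-culture (log2 fold change −0.85, SE 0.14, edgeR adjusted p = 9.9e-04), and Esd, an esterase, had 141, 225 and 269.8 CPM without and 97.6, 137 and 203 CPM with co-culture (log2 fold change −0.55, SE 0.093, edgeR adjusted p = 0.0011). Icosl, a costimulatory ligand for T cells, had 27.7, 34.7 and 33.5 CPM without and 15.2, 19.2 and 25.3 CPM with co-culture (log2 fold change −0.70, SE 0.17, edgeR adjusted p = 0.036), with the 3 co-cultured libraries below the others. Hmga2, an oncofetal chromatin protein, had 11.6, 28.2 and 66.5 CPM without and 6.38, 20.1 and 44.7 CPM with co-culture (log2 fold change −0.62, SE 0.15, edgeR adjusted p = 0.036). Mmp12, the macrophage elastase, had 432, 743 and 692 CPM without and 344, 480.4 and 549 CPM with co-culture (log2 fold change −0.43, SE 0.11, edgeR adjusted p = 0.048).

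Other falls named by the rule were small or near the threshold. Mturn had the largest, with 13.7, 6.67 and 4.63 CPM without and 7.12, 3.21 and 2.33 CPM with co-culture (log2 fold change −0.99, SE 0.25, edgeR adjusted p = 0.041), and Nptx1 the next, with 1.77, 10.96 and 66.7 CPM without and 0.850, 5.01 and 42.9 CPM with co-culture (log2 fold change −0.86, SE 0.22, edgeR adjusted p = 0.046). Prkar2b, a regulatory subunit of protein kinase A, and Slc5a3, an inositol transporter, fell by 0.71 and 0.68 on the log2 scale (edgeR adjusted p = 0.015 and 0.039). Mamdc2 and Akr1b8, an aldo-keto reductase, fell by 0.54 and 0.52 on the log2 scale (edgeR adjusted p = 0.038 and 0.023). Ankrd63, singled out after its values were seen, was the 1 gene that went to 0, with 9, 11 and 14 counts without and 0, 0 and 0 counts with co-culture. Most calls among these falls were lost without 1 pair, namely without pair 1 for Icosl, Hmga2, Mmp12, Mturn, Nptx1, Mamdc2 and Akr1b8, without pair 2 for Hal, Icosl, Hmga2, Mmp12, Mturn, Nptx1, Prkar2b, Slc5a3, Mamdc2 and Akr1b8 and without pair 3 for Icosl, Hmga2, Mmp12, Mturn, Nptx1, Prkar2b, Slc5a3 and Mamdc2 (edgeR adjusted p up to 0.558).

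In 9 other lists 0 genes were called with edgeR, where 2.17% of all genes tested were called and 10.6% were at an unadjusted p under 0.05. Of 31 Polycomb subunit genes 0 were called (3 at an unadjusted p under 0.05), with a median of −0.037. The same count of 0 held for 33 lysosome genes (7 at an unadjusted p under 0.05), 23 glycolysis genes (3), 20 hypoxia response genes (1), 23 cholesterol synthesis genes (3), 80 cytosolic ribosomal protein genes (9), 78 respiratory chain genes (2), 15 leukocyte integrin genes (1) and 13 osteoclast genes (2). Over the 9 lists together 31 of 316 genes (9.81%) were at an unadjusted p under 0.05, near the share of all genes, so these counts are no result about the lists. A p that misses the threshold with 3 pairs does not show that these genes were unchanged.

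Immunoglobulin RNA is described apart, because it may come from the myeloma cells. Summed over the immunoglobulin loci there were 48, 66 and 112 counts without co-culture and 1014, 1593 and 3316 with it in pairs 1, 2 and 3, which is 0.0104%, 0.0161% and 0.0298% of all counts in the latter. Of 9 tested genes 8 rose (88.9%, against 1.85% of all genes tested) and 0 fell. There were 4 called without pair 1, 5 without pair 2, 4 without pair 3 and 1 without the block. Iglc1, Iglc2 and Iglc3 had 0 counts in every MΦ library of both genotypes and passed the filter only through co-cultured libraries. The filter thus favored rises in this list, and the count is no test of it. Igkc, the kappa constant gene, had 0.833, 1.05 and 2.27 CPM in the MΦ libraries and 37.9, 58.7 and 109 CPM in the MM-MΦ libraries (log2 fold change 5.62, SE 0.28, edgeR adjusted p = 1.4e-10), and Ighg2b, the constant gene of IgG2b, had 1.67, 0 and 0.817 CPM without and 40.9, 56.3 and 106 CPM with co-culture (log2 fold change 6.36, SE 0.49, edgeR adjusted p = 5.7e-08). Among the variable genes 1 heavy and 1 kappa gene took nearly all counts. Ighv1-54 took 517 of 541 heavy V counts in the MM-MΦ libraries (95.6%, exact 95% interval 93.5 to 97.1), and Igkv10-96 took 682 of 689 kappa V counts (99%, interval 97.9 to 99.6). Ighg2b took 90% of the heavy constant counts (interval 88.7 to 91.2). These intervals cover counting error only. The 5TGM1 line makes IgG2b, but the source of the immunoglobulin RNA was not tested. In the wt MM-MΦ libraries the same 2 V genes took 91.2% and 97.8%.

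A further 7 genes outside the immunoglobulin loci went from 3 counts or fewer in the MΦ libraries together to 30 or more in the MM-MΦ libraries (chosen after the values were seen). Pou2af1, the B cell coactivator OBF-1, had 0 counts in all 3 MΦ libraries and 11, 32 and 37 in the MM-MΦ libraries, at least 27.1-fold higher against a floor of 3 counts over the group. Il5ra, the interleukin 5 receptor chain, had 0 and then 10, 23 and 37 counts, at least 23.7-fold higher. Lax1, a lymphocyte adaptor, had 2 counts in the MΦ libraries together and 8, 18 and 31 in the MM-MΦ libraries, a ratio of 29 with an exact 95% counting interval of 7.67 to 245. Alpl, Strc and Hepacam2 had 0 counts in the MΦ libraries and 54, 44 and 30 in the MM-MΦ libraries together, at least 18.3, 14.9 and 10.2-fold higher. In each of these 6 genes pair 1 had the fewest counts, as it had for the summed immunoglobulin genes. Pair 1 was also lowest with co-culture for other risen genes, Hist1h1d among them, so this order is not particular to the 6 genes. The source of their RNA was not tested. The other gene, Rad9a, had 3 and 40 counts, again with the fewest in pair 1 with co-culture, but also 44 in wt MΦs. Calls were lost without pair 1 for Lax1, Hepacam2 and Rad9a. Without pair 2 and without pair 3 they were lost for Lax1, Alpl, Strc, Hepacam2 and Rad9a (edgeR adjusted p up to 0.362). The calls of Pou2af1 and Il5ra held without each pair.

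Irf4, a factor of plasma cells that macrophages also use, had 3.44, 3.53 and 1.91 CPM without and 8.40, 8.32 and 8.86 CPM with co-culture (log2 fold change 1.55, SE 0.27, edgeR adjusted p = 0.0012). Of the 14 tested plasma cell genes outside the immunoglobulin loci 2 rose (14.3%, against 1.85% of all genes tested), Pou2af1 and Irf4. Pou2af1, with 0 counts in the BMI1-KO MΦ libraries, passed the filter only through co-cultured libraries. The filter thus favored a rise there, and the count is no test of the list. The summed level of the list was 774.2 to 856 CPM in MΦs and 825 to 959 CPM in MM-MΦs. Most of it came from Xbp1, Slamf7 and Ell2, which macrophages express. Of the defining markers, Mzb1 had 0 counts in all 6 libraries, Tnfrsf17 had 3 in total, Jchain had 9, and Sdc1 had 77 to 207 in each. With immunoglobulin and plasma cell genes left out of the fit 251 genes rose and 42 fell, all among those called with them. What part of the other rises came from RNA of myeloma cells was not tested, and in sorted cells RNA inside the macrophages and RNA of attached or passing cells cannot be told apart.

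**Figure D4:**
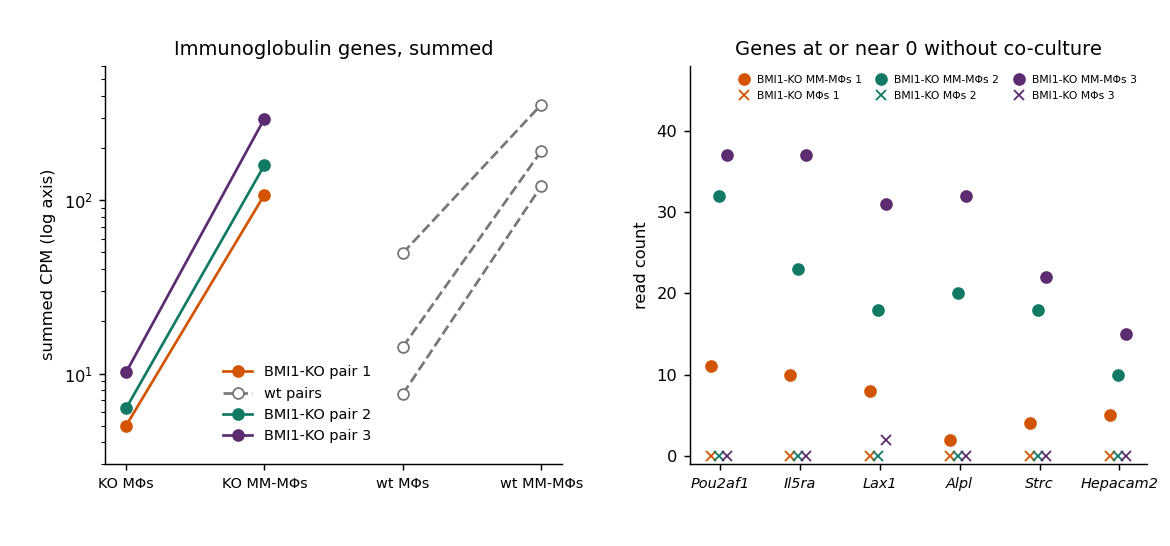
Left, summed CPM of all immunoglobulin genes (log axis) in the MΦ and MM-MΦ library of each BMI1-KO pair (filled) and wt pair (open). Right, read counts of 6 genes in the 3 BMI1-KO MΦ libraries (crosses, 0 to 2 counts) and the 3 BMI1-KO MM-MΦ libraries (circles, 2 to 37 counts).

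Markers of other cell types were compared in the same way. In the B cell, T and NK cell, neutrophil, mast cell and basophil and erythroid and megakaryocyte lists 19 genes in all passed the filter on low counts, and 0 of them were called with edgeR (2 at an unadjusted p under 0.05). With 2.17% of all genes called, so few genes cannot show that these lists stayed level. The neutrophil list summed to 104 to 287 CPM in MΦs and 112 to 366 CPM in MM-MΦs, and its most abundant gene, Csf3r, had a log2 fold change of −0.0038. The B cell list summed to 126 to 194 CPM in MΦs and 145 to 188 CPM in MM-MΦs, from Cd37, Cd22 and Bank1, with Blk, Fcer2a and Vpreb3 at 0. Pax5, the factor that defines B cells, was too low to be tested, with 0, 3 and 0 counts in the MΦ libraries and 8, 4 and 12 in the MM-MΦ libraries of pairs 1, 2 and 3. Its counts were thus higher with co-culture in each pair, and in the wt libraries they summed to 1 without and 16 with it. The dendritic cell list held 1 called gene of 4 tested (25%), Bst2, which interferon also induces. The stromal and endothelial list held 1 of 9 (11.1%), Alpl, where 2.17% of all genes tested were called. Alpl, with 0 counts in the BMI1-KO MΦ libraries, passed the filter only through co-cultured libraries. The calls were lost without pair 2 for Alpl and without pair 3 for Bst2 and Alpl (edgeR adjusted p up to 0.151).

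For reference, the same fit called 150 rises (1.06% of genes tested) and 6 falls (0.0423%) in the wt pairs. The 2 comparisons share no library. Of the 263 genes risen in BMI1-KO cells 132 were also called risen in wt cells, which is 50.2% of the BMI1-KO list and 88% of the wt list, and 256 had a positive wt estimate. Of the 45 fallen genes 4 were also called in wt cells (8.89% of the BMI1-KO list and 66.7% of the wt list). The interferon-stimulated list had a median of 1.26 in BMI1-KO and 1.2 in wt cells, with 42 and 38 of 43 members risen. The histone list had medians of 0.85 and 0.196, with 21 and 0 of 61 risen, and the antioxidant list −0.23 and −0.091, with 6 and 1 of 25 fallen.

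A gene past the threshold in 1 genotype and not in the other is not thereby different, so the difference of the effects was tested itself. It was called for 1 of 14197 genes (0.00704%), Hist1h1d, with 471 genes at an unadjusted p under 0.05. Its log2 fold change was 1.81 in BMI1-KO cells and 0.35 in wt cells, a difference of 1.46 (SE 0.23, edgeR adjusted p = 0.039). In the wt pairs Hist1h1d had 6.20, 23.3 and 155 CPM without and 11.6, 31.4 and 158 CPM with co-culture. It was higher with co-culture in all 3 pairs of both genotypes. Of the interferon-stimulated and the antioxidant list 0 genes were called for the difference with edgeR. Clustered histone genes at an unadjusted p under 0.05 for the difference were 4 of 5 H1 and 5 of 15 H2A genes. The same held for 3 of 16 H2B, 8 of 11 H3 and 6 of 13 H4 genes, where all genes tested had 471 of 14197. No test of the histone list as a whole was run. DESeq2 called 3 genes (Hist1h1d, Hist1h2be and Rps19) and limma-voom 1.

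**Figure D5:**
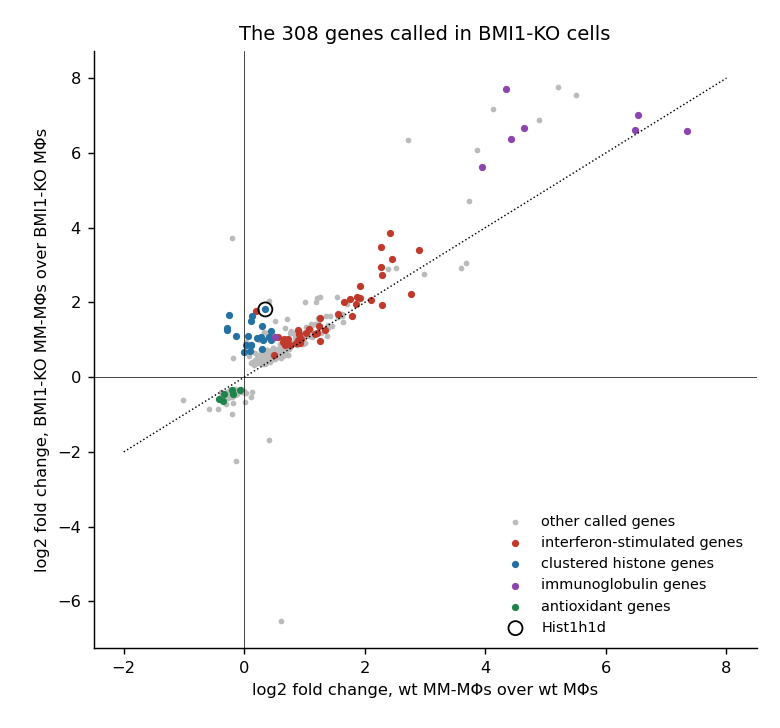
Log2 fold change with co-culture in BMI1-KO cells (vertical axis) against that in wt cells (horizontal axis) for the 308 genes called in BMI1-KO cells, with the dotted line where both are equal. Interferon-stimulated genes have high values on both axes (medians 1.26 and 1.2), the called histone genes lie above it, between −0.29 and 0.44 on the wt axis, and the circled Hist1h1d is the 1 gene whose difference was called.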

How the data were processed

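RNA-seq of sorted CD11b+ F4/80+ cells was examined in 12 libraries of 4 groups with 3 replicates each. The authors deposited raw read counts of 55573 genes and a set of FPKM values per library. The submitters' notes name bcl2fastq 2.17.1.14, cutadapt 1.9.1, HISAT2 2.0.1, HTSeq 0.6.1 and DESeq2, with the build GRCm38 (mm10). The annotation release, the DESeq2 version and the strand setting were not given in the sources used here, so overlapping and antisense genes could not be told apart. All 12 value columns of the count table were assigned to a sample from their names.

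The test was edgeR's (version 4.0.16, under R 4.3.3) on the deposited counts (TMM scaling, filterByExpr with a minimum count of 10, 14197 genes kept, quasi-likelihood test, Benjamini-Hochberg adjustment, threshold 0.05). All 12 libraries entered 1 model with 6 blocks, 1 for each genotype and replicate number, and a co-culture effect for each genotype, leaving 4 residual degrees of freedom, so the wt pairs share in the estimate of the spread. The libraries were matched by the number in their names, and the labels do not say that a number marks 1 mouse or culture. Deviations from the group means correlated across genes within each BMI1-KO number (0.642, 0.18 and 0.598) and each wt number (0.548, 0.361 and 0.725). Between unlike numbers the correlations were −0.583 to 0.0689 in BMI1-KO and −0.562 to 0.116 in wt libraries. The match of BMI1-KO number 2 was thus weak, and the pairing remains an assumption. CPM values use TMM-scaled totals. The log2 changes of single pairs use a pseudocount of 0.5. The deposited FPKM values were used to bound the library totals from genes with at least 50 counts and for levels compared between genes. The scripts were tested on simulated data.

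Alternatives were no block, the 6 BMI1-KO libraries alone, DESeq2 1.42.0, limma-voom (limma 3.58.1), other scalings and filters, a test against a 1.5-fold change, immunoglobulin and plasma cell genes left out, and each pair or library left out. Genes were named by rule: the 12 largest rises and falls among called genes with a mean of at least 5 CPM in the higher group and 1 direction in all 3 pairs, immunoglobulin genes apart, the 5 of each direction with the smallest p, genes the study names, up to 6 called members of each list or else the 3 with the smallest p, the 3 most abundant genes of each other cell type, the 8 smallest p for the difference and the 6 most abundant immunoglobulin genes. The members and gene lists were chosen with earlier results of these data known, and no list was given a test. Pathway genes, families and genes near 0 were picked after their values were seen. Results for some genes are not reported here.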

Additional observations from a re-analysis of the deposited data

Results flagged for a closer look

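Hist1h1d, a linker histone gene, was singled out because its co-culture effect differed between the genotypes in a test of the difference itself. The difference (BMI1-KO minus wt) was 1.46 on the log2 scale (edgeR adjusted p = 0.039), and its level was higher with co-culture in 3 of 3 BMI1-KO pairs and 3 of 3 wt pairs. Groups of 3 libraries are too small for the test of single outlying samples.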

How the results depend on the processing

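The direction of the 116 named and called genes was the same, where they could be fitted, under every alternative that kept all 6 BMI1-KO libraries or left out a whole pair. With the pairing dropped (no replicate block) the counts fell to 27 risen and 0 fallen genes in BMI1-KO cells, 13 called genes in wt cells and 0 for the difference, with 22 interferon-stimulated genes, 0 histone genes and 1 immunoglobulin gene risen and 0 antioxidant genes fallen. With no filter on low counts 407 genes rose, 88 fell and 23 were called for the difference. DESeq2 called 3 for the difference, an alternative chosen after seeing the data like the filter and limma-voom for that result. Against a 1.5-fold change 73 genes rose and 0 fell. Without 1 pair the counts were 161 to 207 risen and 11 to 28 fallen genes, 35 to 36 interferon-stimulated, 3 to 23 histone and 4 to 5 immunoglobulin genes risen, and 2 to 5 antioxidant genes fallen. Without the block and without 1 library the counts were 4, 5, 6, 8 or 23 risen and 0 fallen genes. There 11 genes changed sign in at least 1 fit, with log2 fold changes from −0.579 to 2.65 for Egr1, −0.0228 to 1.01 for Btg2, −0.0507 to 1.69 for Hist1h2bn, −0.948 to 0.0897 (0.0162 in another fit) for Tnfaip2, −0.2999 to 1.44 for Ccl4, −0.205 to 0.866 for Atf3, −0.212 to 1.19 for Ccl3, −0.0943 to 0.882 for Ccl9, −1.41 to 0.264 for Hmga2, −1.22 to 0.23 (0.0594 in another fit) for Mamdc2 and −3.15 to 1.36 for Nptx1. The cause was not tested beyond the construction of these fits, in which 1 library of a pair is missing. The other tools, scalings and filters gave 238 to 276 risen and 35 to 60 fallen genes. Called genes were 80.6% to 87.6% risen under these scalings, and the median of all genes moved by less than 0.03.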
